A study of Mus musculus with 12 samples.

Results

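The genes described here are 36 genes of the response to low oxygen and of glycolysis, taken by gene symbol from a table of 27129 genes measured in the mouse pituitary. They fall into 19 hypoxia-inducible genes, 14 glycolytic enzymes and 3 alpha subunits of the hypoxia-inducible factor (HIF). Messenger RNA was sequenced from 12 individual pituitary samples of newborn mice (postnatal day 0), each the whole gland without its posterior lobe. All 12 carried a transgene that expresses Cre recombinase in pituitary progenitors. The 6 controls had 1 floxed and 1 intact allele of Isl1 (Isl1+/fx), a gene for a LIM-homeodomain transcription factor. The other 6, labelled mutant, had 1 floxed and 1 null allele (Isl1fx/-). The controls thus share the transgene and a floxed allele with the mutants, and the sequenced tissue also held cells outside the lineage in which Cre is active. In such bulk samples, fewer cells of a type and less RNA per cell cannot be told apart. The comparison asks whether genes of the hypoxia response and of glycolysis differed between the glands, and whether the hypoxia-inducible genes and the enzymes moved alike.

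When oxygen is plentiful, prolyl hydroxylases of the EGLN family mark HIF alpha proteins for recognition by the von Hippel-Lindau protein and for destruction. When oxygen falls, the alpha subunits persist, pair with ARNT and bind short elements with the core ACGTG or GCGTG at target genes for glucose uptake, glycolysis, mitochondrial turnover, pH control and vessel growth. Because this control acts on the protein, the mRNA of an alpha subunit does not report its activity. Several targets, Egln3 among them, oppose the pathway and so form a feedback loop.

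The level of a gene is given as CPM, the estimated fragments of the gene scaled to a common library total adjusted by edgeR's TMM factors. Libraries held 45415453 to 61533576 fragments. A gene is said to have risen or fallen where edgeR's quasi-likelihood test, adjusted by Benjamini-Hochberg over the 15246 genes with an FPKM (fragments scaled to gene length and library total) of at least 1 in at least 6 libraries, gave an adjusted p under 0.05. All 36 genes met that minimum: 35 reached an FPKM of 1 in 12 of 12 libraries and Car9 did so in 10. Nothing in the labels says whether samples came from separate litters, so the libraries may not be fully independent, as the p-values assume. Isl1 itself lay between 31.8 and 40.9 CPM in controls and between 53.4 and 68.2 CPM in libraries labelled mutant. It was thus higher where it should be deleted, and since its counts pool all exons they do not check the labels. Y-linked transcripts were near 0 in control replicate 4 and in mutant replicates 0 and 3.

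Of the 36 genes, 7 rose and 0 fell in the libraries labelled mutant, and 29 did not pass the test. That is 19.4% of the genes, where 4.3% of all genes tested rose and 2.75% fell. The genes were chosen with earlier results of these data known, so these shares describe the list and are not a test of it. All 7 were on the hypoxia-inducible list: Egln3, Ankrd37, Bhlhe40, Pdk1, Kdm3a, Bnip3 and Slc2a1. The lists divide the genes by role, and do not part HIF targets from other genes, since HIF targets include genes of glycolysis. Fold changes were small, from 0.20 to 0.48 on the log2 scale. The median log2 fold change was 0.20 over the 19 hypoxia-inducible genes, 0.10 over the 14 glycolytic enzymes, -0.04 over the 3 alpha subunits and -0.0036 over all genes tested. Of the 14 enzymes, 12 had a fold change above 0, but 0 passed the test. Groups did not overlap for 1 of the 36 genes, Egln3, a share of 2.78% that is close to the 2.91% of all genes tested that were higher without overlap, and 0 genes were lower without overlap (1.37% of all genes).

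The count of 7 rested on most of the libraries. It was 3 without control replicate 1 or 4 or mutant replicate 1, 2 or 4, where 3.18% to 3.39% of all genes rose. Without control replicate 3 or mutant replicate 3 the count was 4 (3.51% and 3.72%). It was 5 without control replicate 5 or mutant replicate 5 (4.05% and 4.16% of all genes). It was 8 without control replicate 2 or mutant replicate 0 (4.55% and 4.03%), and 10 without control replicate 0 (4.25%). Without both libraries numbered 0, in which the deposited FPKM followed the counts less closely, it was also 10 (3.98%). Egln3 and Ankrd37 passed in each of these 12 fits. Requiring a fold of more than 1.2 in the test itself (glmTreat of edgeR) left 0 of the 36 genes, against 255 higher genes among all tested (1.67%).

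**Figure D1:**
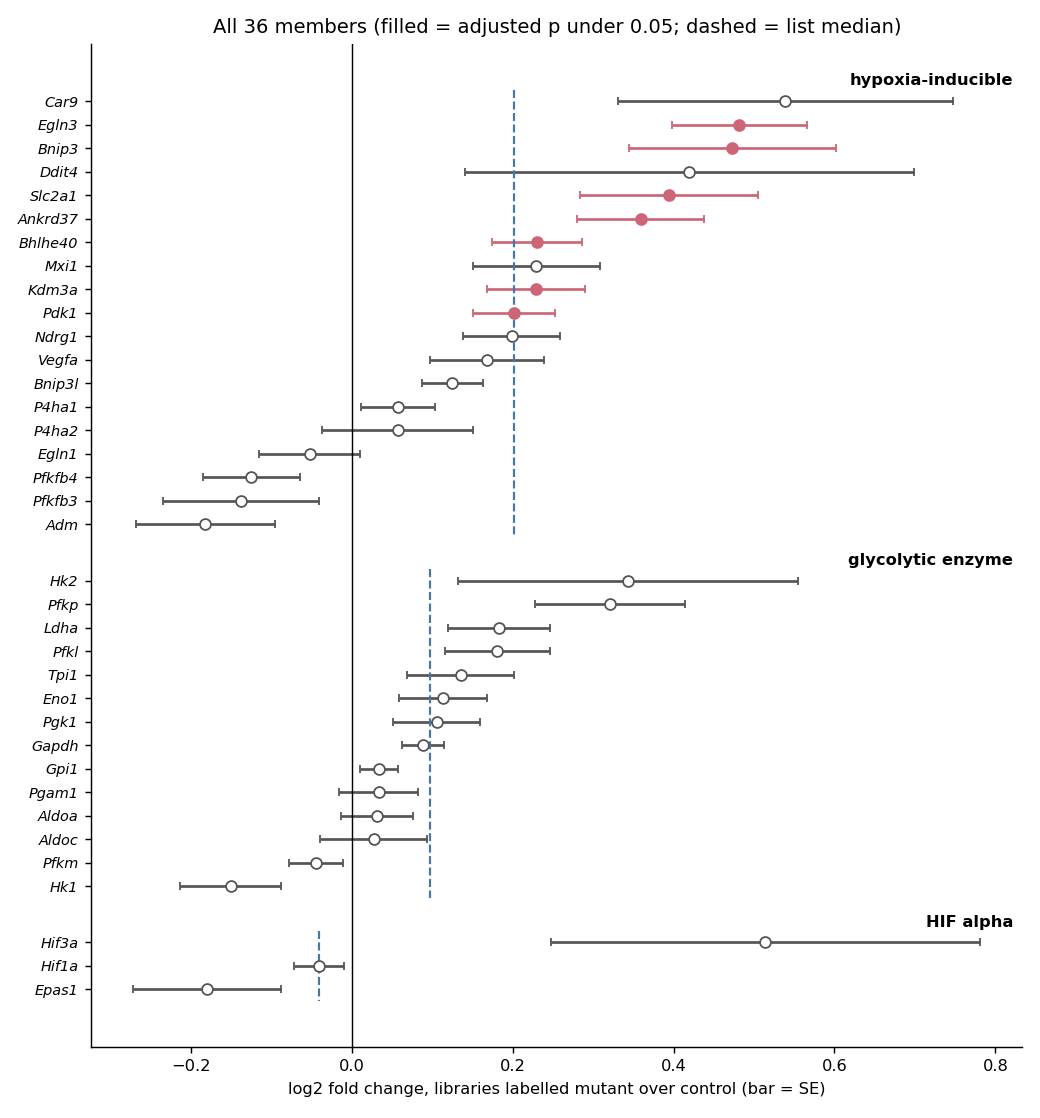
Log2 fold change of each of the 36 genes, libraries labelled mutant over control, with its standard error, grouped by role; filled points passed the edgeR test and dashed lines mark the list medians of 0.20, 0.10 and -0.04. The 7 filled points all lie among the hypoxia-inducible genes, and the glycolytic enzymes lie mostly just above 0.

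The sequences below show where a possible HIF element lies at the start of genes that rose. RefSeq promoters of GRCm38.p6, each 300 bases long with 250 bases before and 50 from the annotated start onwards, were found for 32 of the 36 genes, 49 promoters in all. The promoters of Bhlhe40, one of the risen genes, and of Bnip3l, Ndrg1 and Epas1 were not searched. Printed are those of the 4 risen genes that held ACGTG, and 1 of Ldha, a glycolytic enzyme that held the most matches but did not pass the test. They are read 5′ to 3′ on the strand of the gene, and capitals mark ACGTG or its reverse complement CACGT.
Egln3, chr12:54203825-54204124, minus strand: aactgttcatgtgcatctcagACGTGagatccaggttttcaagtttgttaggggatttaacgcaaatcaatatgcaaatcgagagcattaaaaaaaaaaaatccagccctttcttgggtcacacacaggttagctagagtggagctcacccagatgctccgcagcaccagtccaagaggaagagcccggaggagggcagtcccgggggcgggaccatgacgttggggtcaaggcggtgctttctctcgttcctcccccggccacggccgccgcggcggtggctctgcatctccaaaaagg
Ankrd37, chr8:45999801-46000100, minus strand: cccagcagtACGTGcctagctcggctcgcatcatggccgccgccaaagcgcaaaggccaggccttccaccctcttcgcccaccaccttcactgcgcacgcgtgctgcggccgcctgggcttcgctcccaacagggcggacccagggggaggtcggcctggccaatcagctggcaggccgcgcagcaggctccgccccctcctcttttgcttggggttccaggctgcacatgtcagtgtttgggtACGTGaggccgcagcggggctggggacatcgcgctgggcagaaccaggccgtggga
Bnip3, chr7:138909457-138909756, minus strand: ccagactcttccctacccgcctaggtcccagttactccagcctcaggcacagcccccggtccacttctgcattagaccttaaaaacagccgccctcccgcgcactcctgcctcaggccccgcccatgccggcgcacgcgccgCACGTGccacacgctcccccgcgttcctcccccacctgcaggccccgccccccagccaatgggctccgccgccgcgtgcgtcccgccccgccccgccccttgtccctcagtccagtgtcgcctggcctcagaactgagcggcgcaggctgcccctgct
Slc2a1, chr4:119108495-119108794, plus strand: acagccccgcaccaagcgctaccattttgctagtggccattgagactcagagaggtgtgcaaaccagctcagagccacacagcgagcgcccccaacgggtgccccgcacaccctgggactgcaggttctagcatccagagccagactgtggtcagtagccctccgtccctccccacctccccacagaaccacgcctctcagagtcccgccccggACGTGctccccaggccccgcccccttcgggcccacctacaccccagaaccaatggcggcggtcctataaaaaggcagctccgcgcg
Ldha, chr7:46845554-46845853, plus strand: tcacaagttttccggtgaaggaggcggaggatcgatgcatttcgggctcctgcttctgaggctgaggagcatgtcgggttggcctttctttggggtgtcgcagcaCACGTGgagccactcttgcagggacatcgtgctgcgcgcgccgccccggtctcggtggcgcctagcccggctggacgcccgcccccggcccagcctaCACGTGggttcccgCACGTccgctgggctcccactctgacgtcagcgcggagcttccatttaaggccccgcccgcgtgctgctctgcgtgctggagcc

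In Egln3 the match began 229 bases before the start, at -229, and in Slc2a1 at -36. Ankrd37 held 2, at -241 and -6. Bnip3 held the palindrome CACGTG at -108, which counts once on each strand. The Ldha promoter held 5 counted on both strands, the first at -145, in 2 palindromes and 1 single copy. ACGTG on either strand stood in 26 of the 49 promoters (53.1%) against 19.6% of the 32851 promoters of the table. The share was 60.9% (14 of 23) for hypoxia-inducible genes, 45.8% (11 of 24) for glycolytic enzymes and 44.4% (4 of 9) for the promoters of risen genes. The other core, GCGTG, stood in 57.1% of the 49 and in 32.4% of all. Windows of the same gene can overlap, as in Aldoa, so an element can count more than once. The shares were not adjusted for GC content. Genes such as these came to be listed as hypoxia-inducible partly through such elements, so the shares describe the list. A match is not a bound site. The promoters of Pdk1 and Kdm3a were searched too, and ACGTG was not found in these windows. GCGTG matched 2 times in a window of Pdk1 and 1 time in a window of Kdm3a.

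Of the 2 oxygen sensors on the list, Egln3 rose and Egln1 did not pass the test. Egln3 encodes prolyl hydroxylase PHD3, itself a HIF target. It measured 15.0, 16.6 and 17.4 CPM (lowest, median and highest) in controls and 19.2, 22.2 and 27.0 CPM in libraries labelled mutant. Every mutant library lay above every control, with replicates 2 and 3 highest. The log2 fold change was 0.48 ± 0.08 (SE, n = 6 each), with an edgeR adjusted p of 0.0031. When each of the 12 libraries was left out in turn, its adjusted p stayed between 0.0016 and 0.0083. Egln1, the main hydroxylase for HIF-1 alpha, measured 59.6 ± 3.72 CPM in controls and 57.5 ± 5.54 CPM in mutants (SD), a log2 fold change of -0.05 with an adjusted p of 0.68.

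Per length, Egln2 was the most abundant of the 3 hydroxylases. It made up 65.0 ± 2.39% of their summed FPKM in controls and 64.5 ± 3.11% in mutants (SD, n = 6 each). The share of Egln3 was 9.38 ± 0.998% in controls and 12.2 ± 0.996% in mutants. No mutant library overlapped a control: the highest control share was 10.7% and the lowest mutant share 11.2%. The difference of 2.83 percentage points had p = 0.0022 in an exact two-sided permutation test, the smallest that 6 against 6 can give. Adjusted over the 28 shares tested in 11 gene families it was 0.061, just over the threshold, and 0.04 without mutant replicate 0. With that library left out, the shares of Eno2 among the enolases and of Pdk3 among the pyruvate dehydrogenase kinases also passed, with adjusted p of 0.03 each. With all libraries neither passed (adjusted p 0.12 and 0.20). The Pdk3 share was then 12.7 ± 0.512% in controls and 11.7 ± 1.30% in mutants, with overlapping groups.

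**Figure D2:**
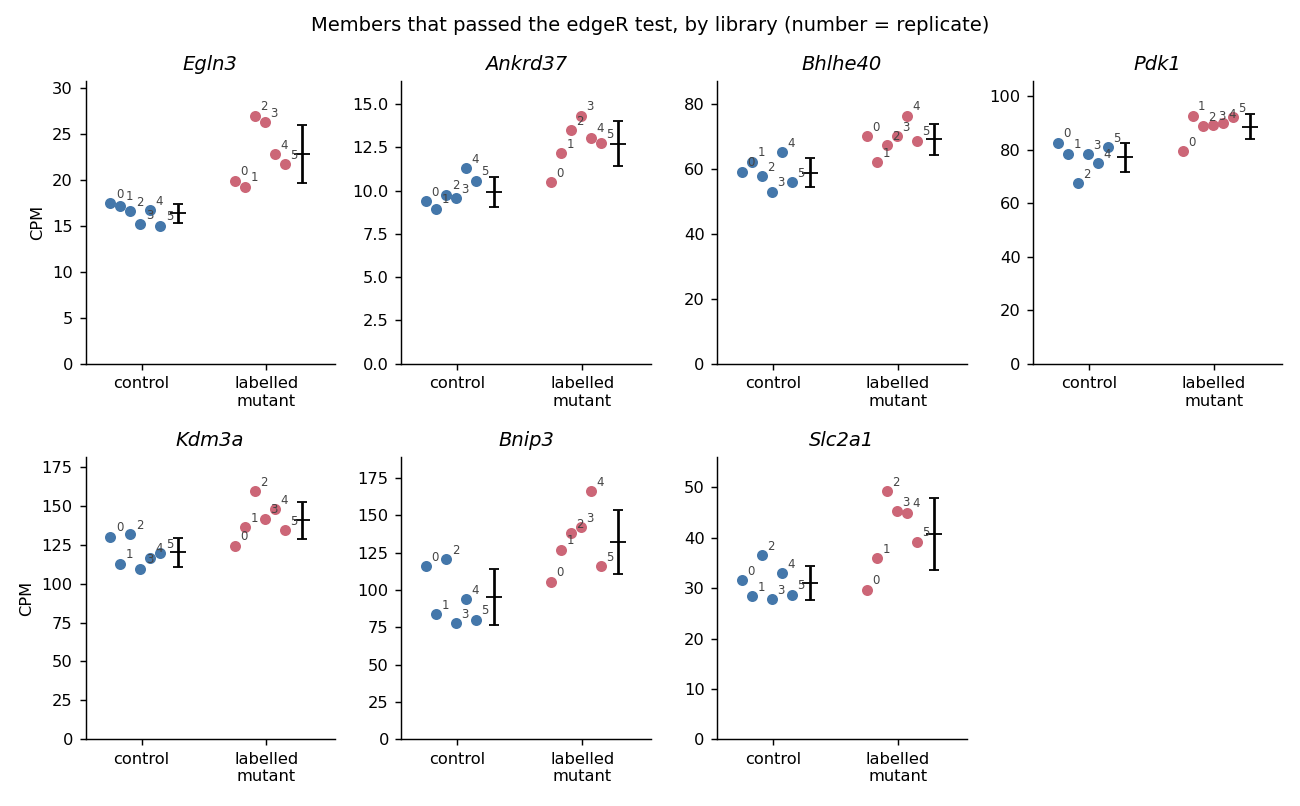
CPM of the 7 genes that passed the edgeR test in each library, with bars for the mean and SD of 6 libraries per group and numbers for the replicate. Egln3 is the one gene whose groups do not overlap, and mutant replicate 0 is the lowest mutant library for Ankrd37, Pdk1, Kdm3a, Bnip3 and Slc2a1.

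The alpha subunits themselves did not pass the test. Hif1a, the broadly expressed subunit, measured 214 ± 6.29 CPM in controls and 208 ± 7.80 CPM in mutants (SD), a log2 fold change of -0.04 with an adjusted p of 0.49. Epas1, which encodes HIF-2 alpha and is prominent in endothelium, measured 133 ± 10.6 and 118 ± 19.2 CPM, a log2 fold change of -0.18 with an adjusted p of 0.27. Mutant replicate 0 held the highest Epas1 value of the 12 libraries, 153 CPM, while 4 of the other 5 mutant libraries lay below the lowest control. Without that library Epas1 fell by 0.27 on the log2 scale with an adjusted p of 0.029, a fit singled out after the values were seen. With any other single library left out Epas1 did not pass, and the adjusted p reached 0.47.

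Hif3a, whose protein products include splice forms that inhibit HIF in the mouse, had the widest spread of the 3. Its levels were 105, 160 and 258 CPM (lowest, median and highest) in controls and 122, 257 and 322 CPM in mutants. The libraries stood in a low set of 4, between 105 and 122 CPM (control replicates 0, 1 and 5 and mutant replicate 0), and a high set of 8, between 194 and 322 CPM. The log2 fold change was 0.51 ± 0.27 (SE) with an adjusted p of 0.28. In the authors' deposited table, which pools the replicates of a group, the FPKM of Hif3a was 24.4 in controls and 34.7 in mutants with a q of 0.0012. The authors' deposited transcript table gave 2 Hif3a transcripts, the more abundant at FPKM 17.6 and 26.7 (q = 0.0017) and the other at 6.72 and 7.99 (q = 0.93). Of the summed FPKM of the 3 alpha subunits, Hif3a took 25.0 ± 7.59% in controls and 33.8 ± 8.14% in mutants, with an adjusted p of 0.20 in the exact permutation test. Hif1a held the largest share in controls, 49.0 ± 5.21%.

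**Figure D3:**
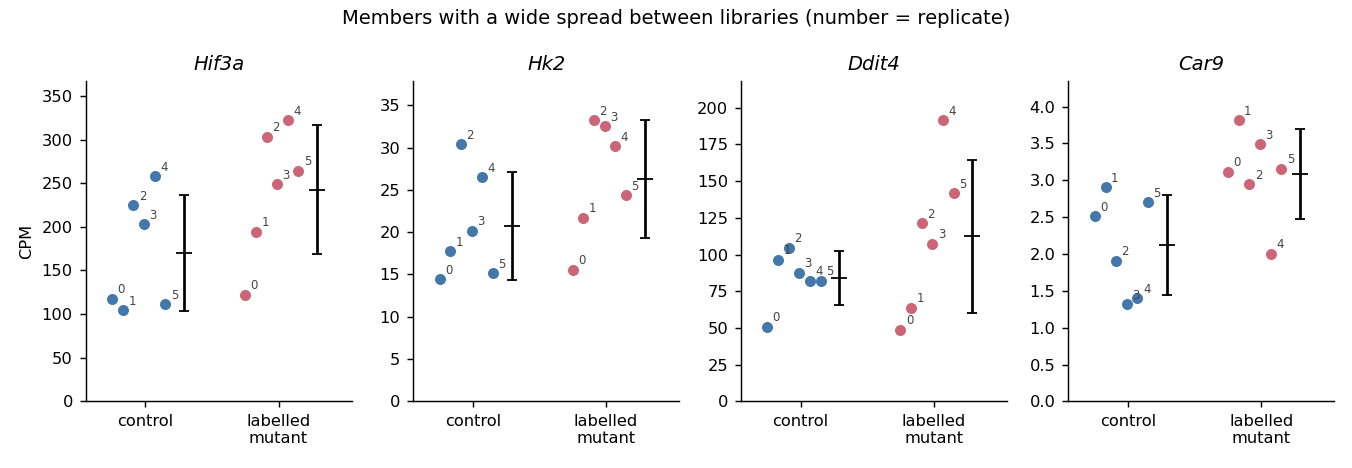
CPM of Hif3a, Hk2, Ddit4 and Car9 in each library, with bars for the mean and SD of 6 libraries per group and numbers for the replicate. The groups overlap for all 4 genes, and control replicates 0, 1 and 5 with mutant replicate 0 are the 4 lowest libraries for both Hif3a and Hk2.

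Genes for glucose entry and pH control were next. Slc2a1 encodes GLUT1, the glucose transporter that HIF-1 induces. It measured 27.8, 30.1 and 36.6 CPM (lowest, median and highest) in controls and 29.7, 42.1 and 49.2 CPM in mutants. The groups overlapped: 4 mutant libraries lay above all controls, while replicate 0 lay below the control mean. Slc2a1 rose by 0.39 ± 0.11 on the log2 scale (SE, adjusted p 0.048). That call was the least stable of the 7, since it held only when control replicate 2 or mutant replicate 0 was the library left out, and otherwise the adjusted p lay between 0.054 and 0.11 in 10 fits. Against Slc2a3, the GLUT3 gene, Slc2a1 took 77.1 ± 2.55% of the summed FPKM of the pair in controls and 82.5 ± 3.39% in mutants, with an adjusted p of 0.12 in the exact permutation test. In the interval of Slc2a1 (chr4:119108745-119138801, mm10) the table lists 2 other genes, Gm12867 and Gm12868, whose reads an unstranded library cannot separate from it.

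Car9, a membrane carbonic anhydrase and a classical HIF-1 target, was the scarcest of the 36. It measured 1.32, 2.21 and 2.91 CPM in controls and 2.01, 3.13 and 3.81 CPM in mutants. Of the mutant libraries 5 exceeded all controls, and replicate 4 was the exception. The log2 fold change of 0.54 ± 0.21 (SE) was the largest among the 36 but did not pass the test (adjusted p 0.14).

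Genes that act on mitochondria included a pair of risen genes. Bnip3, an outer-membrane receptor for mitophagy, measured 77.8, 88.7 and 120 CPM in controls and 105, 132 and 166 CPM in mutants. Control replicates 0 and 2 reached into the range of the mutants, and mutant replicate 4 was highest. It rose by 0.47 ± 0.13 on the log2 scale (SE, adjusted p 0.042). Leaving out control replicate 1, 3, 4 or 5, or mutant replicate 1, 2, 3 or 4, put the adjusted p between 0.068 and 0.097. Its relative Bnip3l (NIX) measured 152 ± 8.45 and 166 ± 5.59 CPM (SD), a log2 fold change of 0.12 with an adjusted p of 0.065. Without control replicate 0, the highest control, that adjusted p was 0.019. With any other single library left out Bnip3l did not pass, and the adjusted p reached 0.14.

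Pdk1 encodes a kinase that inactivates pyruvate dehydrogenase and so keeps pyruvate out of the mitochondrial cycle. Controls measured 67.4, 78.3 and 82.6 CPM, and mutants 79.3, 89.4 and 92.6 CPM. Only mutant replicate 0 overlapped the controls, and the other 5 stood close together above them. Pdk1 rose by 0.20 ± 0.05 on the log2 scale (SE, adjusted p 0.03). The adjusted p lay between 0.051 and 0.069 without control replicate 1 or 4 or mutant replicate 1, 2, 4 or 5. Pdk2 was the most abundant of the 4 kinase genes per length, with 54.8 ± 2.04% of their summed FPKM in controls.

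Among regulators of transcription, Bhlhe40 and Kdm3a rose. Bhlhe40, a basic helix-loop-helix repressor also known as DEC1, measured 52.9, 58.4 and 65.0 CPM in controls and 61.9, 69.3 and 76.3 CPM in mutants. Replicate 1 was the one mutant library that overlapped the controls. Bhlhe40 rose by 0.23 ± 0.06 on the log2 scale (SE, adjusted p 0.025). Only without mutant replicate 4, its highest library, did it miss the threshold when libraries were left out singly (adjusted p 0.056). Its interval also holds 3 rows of other genes (0610040F04Rik and Gm17055), so some reads could belong to them.

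Kdm3a, a histone demethylase that removes a repressive mark, measured 109, 118 and 132 CPM in controls and 124, 139 and 159 CPM in mutants. Mutant replicate 0 alone lay within the control range. It rose by 0.23 ± 0.06 on the log2 scale (SE, adjusted p 0.038). Without control replicate 1, 3, 4 or 5 or mutant replicate 1, 2, 3 or 4 the adjusted p was between 0.06 and 0.089. Mxi1, an antagonist of MYC, measured 90.6 ± 12.4 and 106 ± 7.12 CPM (SD), with a log2 fold change of 0.23 that did not pass (adjusted p 0.10). Without control replicate 0, the highest control, its adjusted p was 0.025. With any other single library left out Mxi1 did not pass, and the adjusted p reached 0.19.

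Ankrd37, a small ankyrin-repeat protein gene induced by HIF-1, passed in every fit that left out 1 library. It measured 8.96, 9.66 and 11.3 CPM in controls and 10.5, 12.9 and 14.3 CPM in mutants. Replicate 0 was the only mutant library below the highest control. The gene rose by 0.36 ± 0.08 on the log2 scale (SE, adjusted p 0.014), and its adjusted p stayed between 0.0031 and 0.038 with each library left out in turn.

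Secreted and signalling genes did not pass the test. Vegfa, the growth factor for blood vessels, measured 88.3 ± 8.03 CPM in controls and 99.2 ± 9.79 CPM in mutants (SD), a log2 fold change of 0.17 with an adjusted p of 0.18. In the authors' deposited transcript table, Vegfa had 6 transcripts, and the log2 fold change of each lay between 0.12 and 0.33, with q of 0.977 or more. Adm, the vasodilator adrenomedullin, measured 3.67 ± 0.33 and 3.24 ± 0.29 CPM, a log2 fold change of -0.18 with an adjusted p of 0.24. Ndrg1, a gene of stress and differentiation, measured 106 ± 10.9 and 121 ± 6.03 CPM, a log2 fold change of 0.20 with an adjusted p of 0.065. Without control replicate 0, the highest control, Ndrg1 had an adjusted p of 0.005. It passed in no other fit that left out a single library, where the adjusted p reached 0.14.

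Ddit4 (REDD1), an inhibitor of mTORC1 that also answers to glucocorticoids and other stresses, varied widely within the mutants. Controls measured 50.7, 85.0 and 105 CPM and mutants 48.9, 114 and 191 CPM. Mutant replicate 0 was the lowest of all 12 libraries, and mutant replicates 4 and 5 were the highest. The log2 fold change of 0.42 ± 0.28 (SE) had an adjusted p of 0.41. In the summed level of 10 immediate-early genes, such as Fos and Egr1, mutant replicate 4 was again highest with 1469 CPM, where controls lay between 696 and 956 CPM. Mutant replicate 5, second for Ddit4, had the lowest sum, 692 CPM. Of those 10 genes, 0 rose or fell, and their part in the result was not tested.

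The prolyl 4-hydroxylases of collagen and the bifunctional PFKFB enzymes, which set fructose 2,6-bisphosphate, also did not pass. P4ha1 and P4ha2 each had a log2 fold change of 0.06, with adjusted p of 0.51 and 0.78. Pfkfb3 measured 15.5 ± 0.94 and 14.1 ± 2.32 CPM (SD), a log2 fold change of -0.14 with an adjusted p of 0.44. Pfkfb4 measured 51.6 ± 3.54 and 47.3 ± 3.89 CPM, a log2 fold change of -0.12 with an adjusted p of 0.24. With Adm and Egln1 they were the hypoxia-inducible genes with a fold change below 0, while the other 15 of 19 lay above it. Per length, Pfkfb2 and Pfkfb4 made up most of the family, with 43.8 ± 2.06% and 41.6 ± 2.33% of its summed FPKM in controls.

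The glycolytic enzymes as a set summed to between 2332 and 2556 CPM in controls and between 2413 and 2720 CPM in mutants. At an unadjusted p under 0.05, 4 of the 14 were higher and 1 lower. Over all genes tested the corresponding shares were 11% higher and 11.3% lower. Among the 19 hypoxia-inducible genes, 12 were higher and 0 lower at that level. Their summed level was 1149 to 1275 CPM in controls and 1232 to 1523 CPM in mutants. The difference between the sets was not tested. With DESeq2, or with scaling by library total or upper quartile, 2 of the 14 enzymes passed (Pfkp and Gapdh, both higher) and 9 of the 19 hypoxia-inducible genes. In those fits 6.13%, 4.81% and 4.9% of all genes rose.

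At the entry step, 0 of the 2 hexokinases of the list passed. Hk1, the housekeeping form, measured 121 ± 9.17 CPM in controls and 109 ± 9.88 CPM in mutants (SD), a log2 fold change of -0.15 with an adjusted p of 0.17. Hk2, the inducible form, measured 20.7 ± 6.42 and 26.3 ± 6.95 CPM, a log2 fold change of 0.34 with an adjusted p of 0.37. The 4 lowest Hk2 libraries, at 14.5 to 17.7 CPM, were the same 4 that were lowest for Hif3a, a match chosen after the values were seen.

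Phosphofructokinase, the committing step, came nearest to a call. Pfkp, the platelet form, measured 72.3, 81.2 and 103 CPM in controls and 94.4, 110 and 119 CPM in mutants. Control replicates 0 and 2 lay among the mutants, and the other 4 controls lay below all of them. Its log2 fold change was 0.32 ± 0.09 (SE) with an adjusted p of 0.055. That value was 0.025 without control replicate 0, 0.022 without control replicate 2 and 0.045 without mutant replicate 0. Pfkp passed in no other fit that left out a single library, where the adjusted p reached 0.12. Pfkp overlaps Pitrm1 in the table (chr13:6548157-6648724 for Pfkp, mm10), and reads of the 2 genes in the shared stretch could be mixed. Pfkl, the liver form, had a log2 fold change of 0.18 (adjusted p 0.11, and 0.034 without mutant replicate 4). With any other single library left out Pfkl did not pass, and the adjusted p reached 0.22. Pfkm, the muscle form, had a log2 fold change of -0.04 (adjusted p 0.48). The share of Pfkm in the summed FPKM of the 3 was 37.7 ± 2.84% in controls and 33.3 ± 1.47% in mutants. That difference had an exact permutation p of 0.017 and an adjusted p of 0.12. The interval of Pfkm overlaps those of Senp1 and Gm26513, so reads could be mixed there too.

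In the middle and lower steps of glycolysis, 0 genes of the list passed. Gapdh measured 281, 292 and 305 CPM in controls and 302, 312 and 320 CPM in mutants. Only 1 control, replicate 5, exceeded the lowest mutant library. The log2 fold change of 0.09 ± 0.03 (SE) had an adjusted p of 0.061, and of 0.036 without control replicate 5. With any other single library left out Gapdh did not pass, and the adjusted p reached 0.13. Ldha, which makes lactate from pyruvate, measured 160 ± 12.5 and 182 ± 16.7 CPM (SD), a log2 fold change of 0.18 with an adjusted p of 0.11. The share of Ldha against Ldhb was 66.2 ± 1.74% and 66.4 ± 1.70% of their summed FPKM. That difference of 0.28 percentage points was well inside the spread.

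For Tpi1, Eno1 and Pgk1, which act between the aldolase step and pyruvate, the log2 fold changes were 0.14, 0.11 and 0.11, with adjusted p of 0.25, 0.24 and 0.27. For Gpi1, Pgam1, Aldoa and Aldoc they were 0.03 each, with adjusted p of 0.43, 0.74, 0.74 and 0.86. Several of these genes have near-identical processed copies in the mouse genome, and the row of Eno1 also names Gm5506, so reads could be shared with such copies. Eno2, the neuronal enolase, is outside the 36. It took 15.1 ± 1.51% of the summed enolase FPKM in controls and 12.4 ± 1.46% in mutants (exact permutation p 0.015, adjusted p 0.12).

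**Figure D4:**
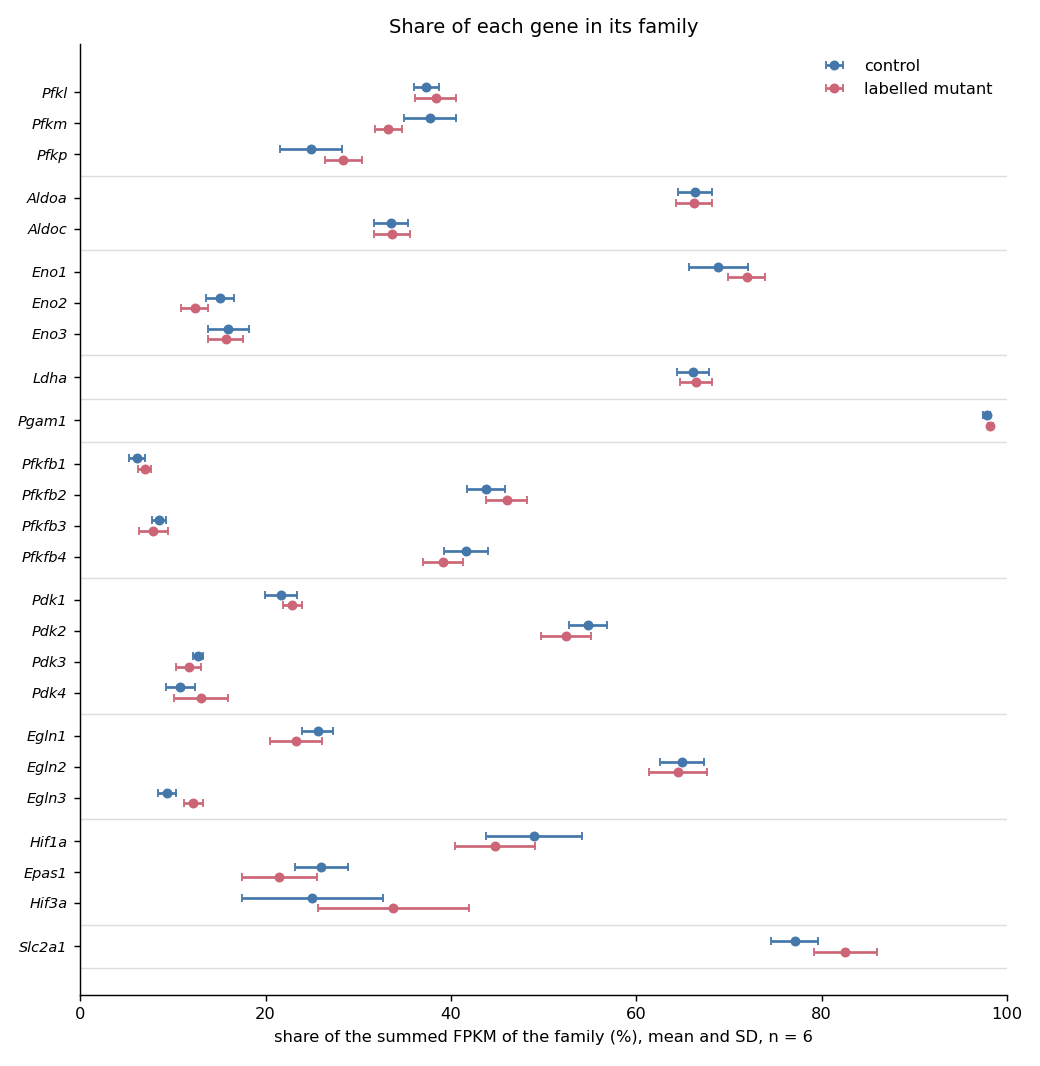
Share of each gene in the summed FPKM of its family (percent, mean and SD of 6 libraries) in controls and in libraries labelled mutant, for the shares tested in families other than the hexokinases. Egln3 is the one gene whose groups do not overlap, 9.38 against 12.2%, and 0 of the shares shown passed after adjustment.

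Each library was also given a score for each set, the mean over its genes of the log2 CPM after TMM scaling minus the control mean of the gene. The hypoxia-inducible score ran from -0.10 to 0.07 in controls and from 0.03 to 0.27 in mutants. Mutant replicate 0, at 0.03, lay within the controls, and the other 5 mutants, from replicate 1 upwards, lay above all of them. The glycolytic score ran from -0.07 to 0.04 in controls and from 0.02 to 0.16 in mutants. Here mutant replicates 0 and 4 lay within the controls. Replicate 4, with a hypoxia-inducible score of 0.26, had the lowest glycolytic score of the mutants, so the sets did not rank the mutant libraries alike.

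**Figure D5:**
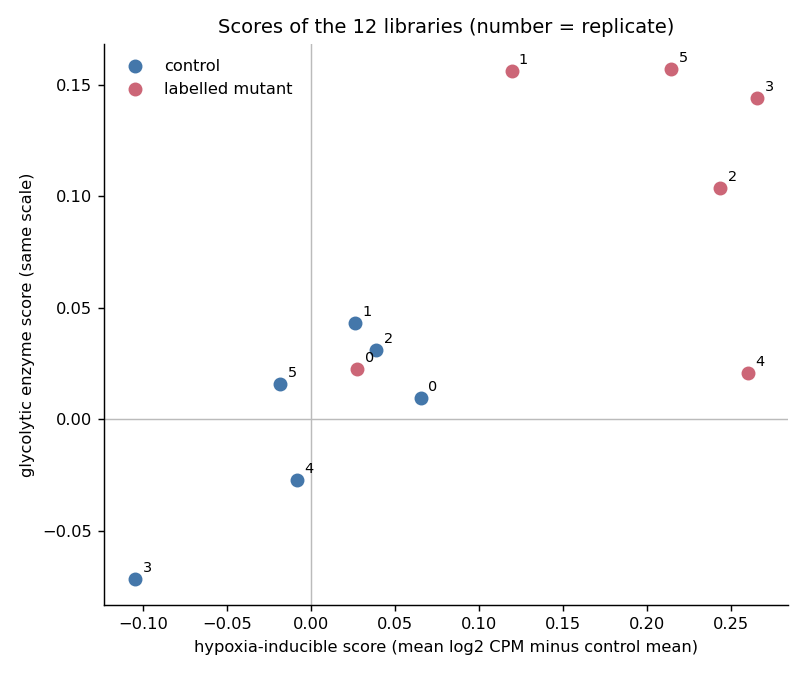
Glycolytic score against hypoxia-inducible score of the 12 libraries, each the mean log2 CPM of the set minus the control mean. Mutant replicate 0 sits among the controls on both axes, and mutant replicate 4 is high on the hypoxia-inducible axis and near the controls on the glycolytic axis.

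Other genes of the pathway were read against the same 4.3% of all genes that rose. Of 10 genes of the HIF machinery, such as Arnt, Vhl and Hif1an, 0 rose or fell. Of 36 other HIF targets, 33 were tested, 3 rose (9.09%) and 0 fell, with a median log2 fold change of 0.03. Ndufa4l2, which dampens mitochondrial complex I in hypoxia, rose from 10.2 ± 1.79 to 17.8 ± 3.45 CPM (SD, log2 fold change 0.81, adjusted p 0.0037). Ier3, an early response gene that many stimuli induce, rose without overlap from 5.41 ± 0.24 to 7.66 ± 1.23 CPM (log2 fold change 0.50, adjusted p 0.0061). Gys1, the glycogen synthase of most tissues, rose from 32.9 ± 1.68 to 38.0 ± 3.09 CPM (log2 fold change 0.20, adjusted p 0.039).

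Of 29 other genes of glycolysis and pyruvate metabolism, 18 were tested, 2 rose (11.1%) and 0 fell, with a median of 0.02. Slc16a3, the lactate exporter MCT4 and a known HIF target, rose from 7.72 ± 0.67 to 11.3 ± 2.38 CPM (SD, log2 fold change 0.54, adjusted p 0.016). Ldhb rose without overlap from 63.2 ± 2.73 to 70.8 ± 1.62 CPM (log2 fold change 0.16, adjusted p 0.0097). Ldhb favours the reverse step, lactate to pyruvate, in many tissues.

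Markers of other cells differed between the groups as well. The anterior pituitary markers were abundant in every library, with summed levels between 46188 and 63385 CPM, and 3 of 9 fell (Cga, Tshb and Pitx1). All 8 tested markers of stratified epithelium rose, with sums between 14.7 and 20.0 CPM in controls and between 62.9 and 131 CPM in mutants. All 7 tested markers of motile cilia rose, from sums of 64.0 to 71.9 CPM to sums of 113 to 212 CPM. Mutant replicate 0 had the highest sum of each, 131 and 212 CPM, and the lowest hypoxia-inducible score among the mutants.

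Endothelial markers summed to between 851 and 1006 CPM in controls and between 838 and 918 CPM in mutants, and 1 of 10 fell (Plvap). Erythroid markers summed to 61.6 to 88.4 and 60.4 to 122 CPM, with 0 of 5 tested passing. Leukocyte markers summed to 86.3 to 113 and 86.4 to 115 CPM, and 1 of 8 rose (Lyz2). Markers of pituicytes, at 254 to 317 and 251 to 316 CPM, and of skeletal muscle, at 15.0 to 19.1 and 15.6 to 17.5 CPM, gave 0 calls. Of 8 genes of the integrated stress response, 0 passed, with sums of 344 to 367 and 327 to 349 CPM. The part of these cells in the result was not tested.

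In the authors' deposited table of genes, 13 of the 36 had a q of at most 0.05, all with higher FPKM in mutants, where 5.2% of the 18309 genes with a test in the authors' deposited table did. Of the 13, 10 were hypoxia-inducible genes, 2 were glycolytic enzymes and 1 was an alpha subunit. All 7 risen genes were among them. The 6 others were Ddit4, Mxi1, Ndrg1, Hk2, Pfkp and Hif3a, whose edgeR adjusted p lay between 0.055 and 0.41. None of the 36 was marked as changed in the authors' deposited table of genes, where marked genes have a fold of at least 1.5. In the authors' deposited transcript table the more abundant Hif3a transcript was the 1 transcript of these genes that was marked.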

How the data were processed

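Per the labels' protocols, total RNA went into TruSeq version 2 libraries. The submitters' processing notes name the build mm10 and, as tools, Cuffdiff 2.1.1 and Cufflinks, TopHat2 2.0.9 with Bowtie2 2.1.0, and FastQC 0.10.1. The estimated counts of fragments and the FPKM values per gene and library are as the authors deposited them, and 89.99% to 90.41% of non-zero counts were whole. Their pooled FPKM, log2 fold change and q-value per gene and transcript come from the authors' deposited tables. Here counts were rounded, scaled by TMM and tested across all genes with edgeR 4.0.16 (R 4.3.3); DESeq2 1.42.0 and limma 3.58.1 were alternatives. CPM used the total of each library over the genes tested, multiplied by its TMM factor. Family shares were compared with exact two-sided permutation tests.

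The 36 genes, the lists and the tests were chosen with earlier results of these data known. All 36 are named; those that passed are given by library, and other pathway genes are named where they passed. Coordinates are 1-based; the deposited starts were 1 below RefSeq's for 6991 of 10048 genes with equal ends. Besides the overlaps named above, the intervals of Car9, Ndrg1, Hk1, Hk2, Gpi1, Tpi1 and Hif1a also overlap those of other genes. Within a group, every pair of libraries was further apart than counting error allows, with a chi-square of 17.3 to 41.1 for each degree of freedom. The scripts were tested on simulated data with known changes. In control replicate 0 and mutant replicate 0 the ratio of FPKM to count varied between genes by 0.13 and 0.15 (SD, log2). In the other libraries it varied by at most 0.0043. The effect of this variation on the shares was examined only by leaving libraries out and by taking shares of summed CPM. A further 12 columns of per-sample values were not used, and the authors' enrichment table was not used. The shares of the hexokinase family are not reported here.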

Additional observations from a re-analysis of the deposited data

Results flagged for a closer look

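Each of the 36 genes was screened in each group of 6 libraries, 72 groups in all, for a library far from the rest, which chance alone does in about 1 group in 20. The 1 result found was the Pdk1 level of mutant replicate 0, 79.3 CPM, where the other 5 mutant libraries lay between 88.8 and 92.6 CPM. Pdk1 rose with that library included. Without it the adjusted p of the edgeR test remained under the threshold.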

How the results depend on the processing

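Of 932 values of single genes under up to 26 alternatives, 846 kept their direction and their side of the threshold. The count of 7 risen genes was 11 with scaling by library total, 11 with upper-quartile scaling and 11 with DESeq2, each adding Bnip3l, Ndrg1, Pfkp and Gapdh; of all genes, 4.81%, 4.9% and 6.13% rose there, against 4.3%. Limma found 3 (Ankrd37, Egln3 and Bhlhe40) on log2(FPKM + 1), 3 on log2(FPKM + 0.1) and 3 on log2(FPKM + 0.5), where 3.32% to 3.38% of all genes rose. The count was 0 in a test against a fold of 1.2 (1.67% of all genes). It was 6 with FPKM of at least 5, where 32 of the 36 genes were tested and 2.54% of all genes rose. There Slc2a1 and Bnip3 did not pass and the enzyme gene Gapdh did. The count was 6 with the Y-linked level as covariate (3.82% of all genes) and 10 without both libraries numbered 0 (3.98%). Leaving out single libraries gave 3 to 10 risen genes, 0 to 1 fallen genes and 0 to 3 family shares. In those fits 3.18% to 4.55% of all genes rose, and 197 to 443 of the 15246 genes fell. Same-numbered libraries deviated from their group means with correlations of -0.0893 to 0.403, and differently numbered ones with -0.312 to 0.31. The highest value was that of control and mutant replicate 2, so these values do not settle whether the numbers pair the samples. With a replicate block 5 genes rose, without Bnip3 and Pdk1, and 672 genes were higher and 401 lower over all genes, against 656 and 419. No scaling moved the median of all genes above 0.0132. Signs turned for values near 0 with single libraries left out. The log2 fold change of Aldoc ran from -0.0137 (without control replicate 4) to 0.0737, and that of P4ha2 from -0.0162 (without control replicate 5) to 0.103. Share differences in percentage points ran from -0.597 to 0.574 for Aldoa, -0.603 to 0.584 for Aldoc, -1.253 to 0.415 for Egln2 (0.132 with CPM), -0.875 to 0.402 for Eno3 and -0.159 to 0.828 for Ldha. The causes were not tested. Depth limits Car9 most, with as few as 63 fragments in a library.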
